A study of Homo sapiens with 9 samples.

Results

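The PARP genes encode enzymes that move ADP-ribose from NAD onto proteins, and 10 of them were followed here across RNA sequencing libraries of PANC-1, an established cell line from a human pancreatic carcinoma. The members were a fixed list of gene symbols (PARP1, PARP2, PARP3, PARP4, PARP6, PARP8, PARP9, PARP10, PARP12 and PARP14), matched to the Ensembl identifiers of the files. They, and the other gene lists below, were chosen with earlier results of these data known. All 10 were found among 36753 gene identifiers in each of the 9 libraries. The libraries came in 3 groups of 3, all harvested 48 hours after transfection: cells given a short interfering RNA (siRNA) against SIRT6 (siSIRT6), cells given one against KDM5C (siKDM5C), and transfected control cells. SIRT6 encodes a nuclear deacylase that consumes NAD, and KDM5C encodes a demethylase of lysine 4 of histone H3. How many siRNAs were used, and their sequences, the sources used here do not give. Nothing says that replicates were grown as separate cultures, and the p-values then measure only a spread between samples that may be technical.

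The family divides by what its members respond to. PARP1 and PARP2 bind DNA breaks and build chains of ADP-ribose there, with PARP3 adding single units at breaks, and these 3 are called the DNA damage PARPs below. PARP9, PARP10, PARP12 and PARP14 are known as interferon-induced genes whose products act on signalling, RNA and viruses, and are called interferon-linked below. PARP4, PARP6 and PARP8 belong to neither set.

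The promoters of PARP14, PARP12, PARP9 and PARP1 are printed because a match to an interferon response element separates the first 3, which are interferon-linked, from PARP1. Each runs from 250 bases before to 50 bases after a RefSeq transcription start in the GRCh38.p14 build, 5′ to 3′ on the gene's strand. Capitals mark matches to the core of the interferon-stimulated response element, GAAANNGAAA, the kind of element bound by interferon-activated factors, and to the gamma-activated site, TTCNNNGAA, an element of the interferon gamma response, both searched on both strands. The regions are chr3:122680589-122680888 (plus strand) for PARP14, chr7:140062902-140063201 (minus strand) for PARP12, chr3:122564251-122564550 (minus strand) for PARP9 and chr1:226408044-226408343 (minus strand) for PARP1.
PARP14: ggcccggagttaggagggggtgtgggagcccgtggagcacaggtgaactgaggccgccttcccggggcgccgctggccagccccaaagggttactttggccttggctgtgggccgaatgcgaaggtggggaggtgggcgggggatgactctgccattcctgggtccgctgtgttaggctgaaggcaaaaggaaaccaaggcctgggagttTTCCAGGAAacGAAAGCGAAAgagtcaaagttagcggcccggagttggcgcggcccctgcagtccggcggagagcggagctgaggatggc
PARP12: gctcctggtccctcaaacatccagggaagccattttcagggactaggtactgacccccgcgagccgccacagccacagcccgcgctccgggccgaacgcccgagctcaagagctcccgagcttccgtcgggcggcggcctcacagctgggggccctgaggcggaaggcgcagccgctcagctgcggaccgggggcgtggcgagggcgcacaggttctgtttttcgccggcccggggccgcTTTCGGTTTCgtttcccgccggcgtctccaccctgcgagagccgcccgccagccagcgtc
PARP9: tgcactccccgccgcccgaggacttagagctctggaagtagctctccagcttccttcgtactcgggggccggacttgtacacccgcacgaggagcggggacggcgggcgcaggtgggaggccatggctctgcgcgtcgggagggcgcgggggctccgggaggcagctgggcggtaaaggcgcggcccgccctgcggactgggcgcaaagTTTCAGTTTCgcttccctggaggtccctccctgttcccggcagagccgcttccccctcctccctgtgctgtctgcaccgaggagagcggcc
PARP1: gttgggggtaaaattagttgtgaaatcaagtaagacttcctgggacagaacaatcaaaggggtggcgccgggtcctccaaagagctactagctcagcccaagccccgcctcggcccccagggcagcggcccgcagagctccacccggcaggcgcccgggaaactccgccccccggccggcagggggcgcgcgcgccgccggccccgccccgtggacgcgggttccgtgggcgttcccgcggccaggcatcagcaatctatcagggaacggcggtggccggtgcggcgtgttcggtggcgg

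The response element core was found in the promoters of PARP14, PARP12 and PARP9, which were 3 of the 3 interferon-linked genes with a promoter in the RefSeq table. It was found in 0 of the 3 DNA damage genes and 0 of the other 2 genes with a promoter, against 1255 of all 35116 promoters (3.57%). That share counts promoters and not genes, and the 3 interferon-linked genes have 4 promoters in the table. In PARP14 the core, GAAAGCGAAA, began at position -29 relative to the start. In PARP12 it lay on the opposite strand and so reads TTTCGGTTTC, beginning at position -10. PARP9 has a pair of starts in the table, and the core was matched at only 1 of them, reading TTTCAGTTTC from position -41. Those 10 bases (chr3:122564332-122564341) are also in the promoter of DTX3L, the neighbour of PARP9 on the other strand, where the same match begins at position -6. The gamma-activated site matched in PARP14 from position -40, next to the response element and not overlapping it, and in PARP2 from position -154, against 2689 of all promoters (7.66%). Promoters for PARP4 and PARP10 were not used here. A match in these windows describes letters and not a bound site.

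**Figure D1:**
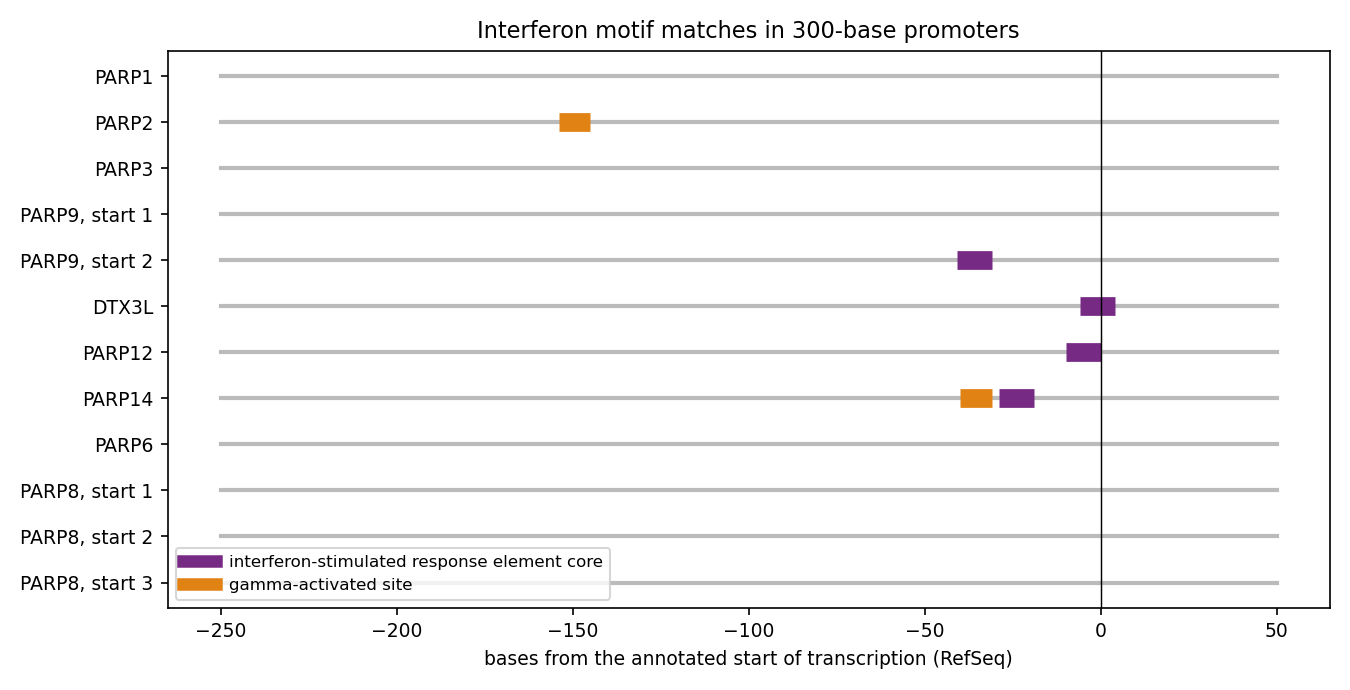
Positions of motif matches in RefSeq promoters of the PARP genes and of DTX3L. The horizontal axis gives bases from the annotated transcription start, each grey line is the 300 bases searched at 1 start, purple marks the interferon-stimulated response element core and orange the gamma-activated site. The purple marks lie within 50 bases of the start in PARP9, DTX3L, PARP12 and PARP14, and PARP1, PARP3, PARP6 and PARP8 have no mark.

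The target of each siRNA was low in its own libraries. SIRT6 stood at 0.597 ± 0.172 FPKM in siSIRT6, 5.01 ± 0.397 FPKM in siKDM5C and 6.18 ± 1.00 FPKM in control (FPKM, fragments per kilobase of gene scaled to library depth; SD, n = 3). KDM5C stood at 17.8 ± 0.139 FPKM in siSIRT6, 3.61 ± 0.290 FPKM in siKDM5C and 18.4 ± 0.389 FPKM in control. Neither siRNA changed the other's target past the threshold (adjusted p = 0.513 for KDM5C after siSIRT6, and 0.106 for SIRT6 after siKDM5C). With GC content and length trends removed, both differences passed it (adjusted p = 0.0485 and 0.0353), as did SIRT6 after siKDM5C without control replicate 2 (adjusted p = 0.0336). The values implied 18201413 to 26910441 reads in genes per library. The epithelial markers KRT7, KRT8, KRT18, KRT19 and EPCAM all reached 1 FPKM, with a summed level of 1398 to 1513 FPKM in siSIRT6, 696 to 856 FPKM in siKDM5C and 1091 to 1143 FPKM in control. Of the leukocyte markers only CD68 reached 1 FPKM, at 34.0 to 37.1 FPKM in siSIRT6, 70.2 to 91.2 FPKM in siKDM5C and 40.6 to 54.7 FPKM in control, while PTPRC and LYZ stayed below it in every library. The endothelial and acinar markers summed to under 0.1 FPKM in every library. Since these were cultures of a single line sequenced in bulk, fewer cells holding a transcript and less transcript per cell cannot be told apart.

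After siSIRT6, PARP1 fell to less than 50% of its control level, and PARP2, PARP12, PARP14 and PARP6 fell as well. After siKDM5C the largest falls among the 10 genes were those of the interferon-linked PARP14 and PARP12, while PARP1 fell less. Between the knockdowns, PARP1 and PARP2 were lower after siSIRT6, and all 4 interferon-linked genes were lower after siKDM5C. A difference was called at an adjusted p below 0.05 (limma on log2(FPKM + 1), Benjamini-Hochberg over 16135 genes). In siSIRT6 against control, 0 of the 10 genes were higher and 5 were lower (PARP1, PARP2, PARP6, PARP12 and PARP14), where 23.9% of all genes tested were called higher and 26.9% lower, 50.8% in all. In siKDM5C against control, 0 were higher and 6 were lower (PARP1, PARP6 and the 4 interferon-linked genes), where 25.6% of all genes were called higher and 25.9% lower, 51.5% in all. The total share of members called was therefore near that of all genes in both comparisons. In siSIRT6 minus siKDM5C, 4 were higher and 2 lower, where 18.6% of all genes were called higher and 21.3% lower, 39.9% in all. At an unadjusted p below 0.05, limma also called 0 of the 10 higher in either knockdown against control. The 2 comparisons with control share the 3 control libraries, so their values are given side by side and are not independent.

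**Figure D2:**
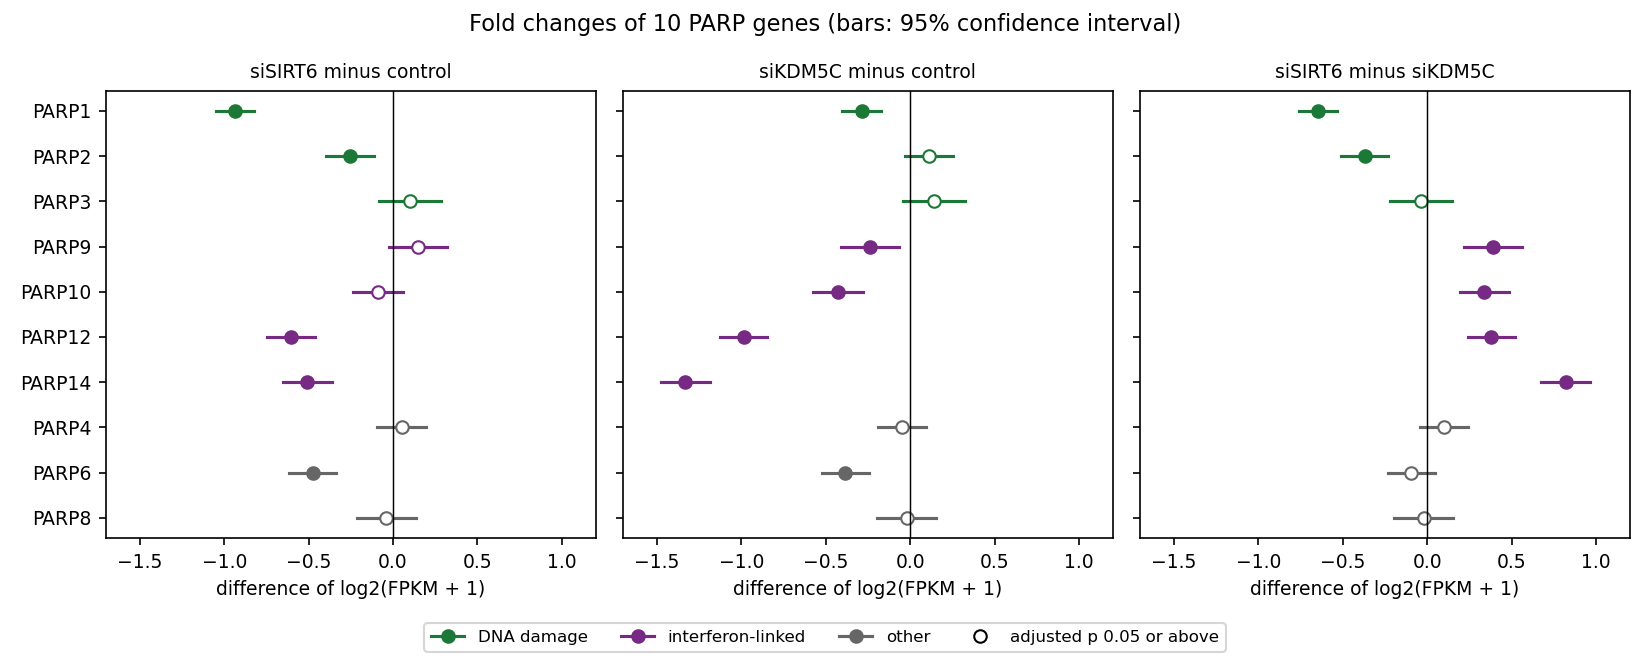
Difference of log2(FPKM + 1) of each PARP gene (horizontal axis) with its 95% confidence interval in siSIRT6 minus control, siKDM5C minus control and siSIRT6 minus siKDM5C. Colours give the set, and filled points passed an adjusted p of 0.05. In the right panel PARP1 and PARP2 lie left of 0 and PARP9, PARP10, PARP12 and PARP14 lie right of it.

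PARP1 (ENSG00000143799, chromosome 1, 226360691 to 226408079, minus strand, GRCh38) is the main poly(ADP-ribose) polymerase of the nucleus and the first to reach many DNA breaks. PARP1 was at 5.31, 5.18 and 5.17 FPKM in the siSIRT6 libraries, at 9.01, 8.46 and 8.77 FPKM in the siKDM5C libraries, and at 10.6, 10.6 and 11.5 FPKM in the controls. No library of a group overlapped another group, and siSIRT6 was lowest throughout. The siSIRT6 mean of PARP1 was 47.9% of the control mean (log2 fold change -0.94, SE 0.05, adjusted p = 2.79e-06). The siKDM5C mean of PARP1 was 80.2% of control (log2 fold change -0.29, SE 0.05, adjusted p = 0.00151). Set against each other, PARP1 in siSIRT6 was 59.7% of its level in siKDM5C (log2 fold change -0.65, SE 0.05, adjusted p = 3.22e-05).

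PARP2 (ENSG00000129484, chromosome 14, 20343582 to 20357905, plus strand) shares part of the work of PARP1 at single-strand breaks. PARP2 was at 3.99, 4.45 and 3.95 FPKM in siSIRT6, at 5.56, 5.72 and 5.61 FPKM in siKDM5C, and at 5.06, 4.80 and 5.54 FPKM in control. The siSIRT6 libraries lay below all others and the siKDM5C libraries above all controls, the nearest being 5.56 FPKM in siKDM5C and 5.54 FPKM in control. PARP2 fell after siSIRT6 to 80.5% of control (log2 fold change -0.26, SE 0.06, adjusted p = 0.00837). After siKDM5C it was 0.11 log2 from control (95% confidence interval -0.03 to 0.26), which did not pass the test (adjusted p = 0.158). The direct difference, siSIRT6 minus siKDM5C, was -0.37 (SE 0.06, adjusted p = 0.00191). PARP2 shares 104 exonic bases with the antisense gene AL355075.4 and 26 with AL355075.1, so its reads are uncertain there. AL355075.4 was at 3.439 FPKM in siSIRT6, 5.511 FPKM in siKDM5C and 3.809 FPKM in control. Its difference between the knockdowns passed the limma test (log2 fold change -0.55, adjusted p = 0.0264). AL355075.1 was at 7.936 FPKM in siSIRT6, 10.56 FPKM in siKDM5C and 9.044 FPKM in control, with no difference past the test. Their part in the PARP2 values was not tested.

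PARP3 (ENSG00000041880, chromosome 3, 51942345 to 51948867, plus strand) acts in the joining of double-strand breaks. PARP3 was at 5.47, 4.65 and 4.62 FPKM in siSIRT6, at 4.59, 5.07 and 5.56 FPKM in siKDM5C, and at 4.55, 4.69 and 4.26 FPKM in control. The 3 groups overlapped. Its log2 differences were 0.10 for siSIRT6 (95% confidence interval -0.08 to 0.29, adjusted p = 0.313) and 0.14 for siKDM5C (-0.04 to 0.32, adjusted p = 0.173). Of the 3 DNA damage PARPs, 2 fell after siSIRT6, where 26.9% of all genes tested were called lower, with a median log2 fold change of -0.26, against -0.05 over all genes tested. After siKDM5C, 1 of these 3 fell, where 25.9% of all genes were called lower, with a median of 0.11, against -0.02 over all genes tested.

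PARP14 (ENSG00000173193, chromosome 3, 122680618 to 122730840, plus strand) encodes a protein with macrodomains, which read ADP-ribose, that is known as a cofactor of STAT6. PARP14 was at 10.3, 10.2 and 9.98 FPKM in siSIRT6, at 4.98, 5.65 and 5.31 FPKM in siKDM5C, and at 15.6, 15.4 and 13.7 FPKM in control. The groups were fully separate, with siKDM5C lowest and siSIRT6 between it and the controls. PARP14 was 68.1% of control after siSIRT6 (log2 fold change -0.51, SE 0.06, adjusted p = 0.000259) and 35.7% of control after siKDM5C (log2 fold change -1.33, SE 0.06, adjusted p = 1.45e-06). In siSIRT6 it was 191% of its siKDM5C level (log2 fold change 0.82, SE 0.06, adjusted p = 3.42e-05).

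PARP12 (ENSG00000059378, chromosome 7, 140023744 to 140063721, minus strand) encodes a zinc finger protein that adds single ADP-ribose units and restricts some viruses. PARP12 was at 5.06, 5.21 and 4.69 FPKM in siSIRT6, at 3.29, 3.62 and 3.89 FPKM in siKDM5C, and at 8.01, 8.13 and 8.15 FPKM in control. Here too no groups overlapped and the order was that of PARP14. PARP12 was 61.6% of control after siSIRT6 (log2 fold change -0.61, SE 0.06, adjusted p = 8.11e-05) and 44.5% after siKDM5C (log2 fold change -0.99, SE 0.06, adjusted p = 6.02e-06). The difference between the knockdowns was 0.38 (SE 0.06, adjusted p = 0.00159).

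PARP10 (ENSG00000178685) encodes an enzyme that adds single ADP-ribose units and binds the replication clamp PCNA. PARP10 was at 9.27, 8.76 and 9.41 FPKM in siSIRT6, at 6.39, 7.03 and 7.69 FPKM in siKDM5C, and at 9.79, 9.66 and 9.93 FPKM in control. The siSIRT6 libraries lay just below the controls, and the siKDM5C libraries well below both. After siKDM5C PARP10 fell to 71.9% of control (log2 fold change -0.43, SE 0.06, adjusted p = 0.000711). After siSIRT6 it stood at 93.4% of control (log2 fold change -0.09, 95% confidence interval -0.24 to 0.06), which did not pass the test (adjusted p = 0.273). With trends in GC content and length removed, that difference was -0.20 and passed (adjusted p = 0.00363, range over alternatives 0.00363 to 0.536). PARP10 was higher in siSIRT6 than in siKDM5C by 0.34 log2 (SE 0.06, adjusted p = 0.00363). PARP10 shares 324 exonic bases with GRINA on the other strand, a highly expressed gene at 82.9 ± 1.10 FPKM in siSIRT6, 62.4 ± 4.58 FPKM in siKDM5C and 71.3 ± 0.895 FPKM in control. Whether reads were counted by strand is not stated in the sources used here, and the reads of this pair are uncertain.

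PARP9 (ENSG00000138496, chromosome 3, 122527924 to 122564577, minus strand) encodes a macrodomain protein that works bound to the ubiquitin ligase DTX3L. PARP9 was at 3.66, 3.96 and 4.16 FPKM in siSIRT6, at 2.50, 3.10 and 2.70 FPKM in siKDM5C, and at 3.64, 3.47 and 3.20 FPKM in control. The siKDM5C libraries were below all others, and the lowest siSIRT6 library was only just above the highest control. PARP9 fell to 80.4% of control after siKDM5C (log2 fold change -0.24, SE 0.08, adjusted p = 0.0271). That call was lost without siKDM5C replicate 1 (adjusted p = 0.0871), siKDM5C replicate 3 (0.0635), control replicate 1 (0.0908) or control replicate 2 (0.0713), with no filter on low values (0.0569) and in a fit of the 2 groups alone (0.0584). Over all alternatives the adjusted p ran between 0.00905 and 0.0908. After siSIRT6 PARP9 was 114% of control (log2 fold change 0.15, 95% confidence interval -0.02 to 0.32), which did not pass the test (adjusted p = 0.127). Between the knockdowns PARP9 differed by 0.39 log2 (SE 0.08, adjusted p = 0.00399), higher in siSIRT6.

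DTX3L, the partner of PARP9, had a larger fold change after siKDM5C than PARP9 had. DTX3L (ENSG00000163840, chromosome 3, 122564238 to 122575203, plus strand) lies head to head with PARP9, and their annotated spans share 340 bases, of which 217 are exonic in both. The reads of both genes are uncertain there, and the ratio given below rests on them. DTX3L was at 12.4, 11.8 and 12.3 FPKM in siSIRT6, at 5.85, 7.12 and 6.24 FPKM in siKDM5C, and at 14.8, 15.3 and 12.9 FPKM in control. The siKDM5C libraries stood far below both other groups, and the siSIRT6 libraries just below the controls. DTX3L fell to 44.6% of control after siKDM5C (log2 fold change -1.05, SE 0.08, adjusted p = 1.84e-05). After siSIRT6 DTX3L stood at 84.7% of control (log2 fold change -0.22, SE 0.08) and missed the threshold (adjusted p = 0.0508, range over alternatives 0.0174 to 0.156). The ratio of DTX3L to PARP9 was 3.11 ± 0.237 in siSIRT6, 2.32 ± 0.0186 in siKDM5C and 4.17 ± 0.207 in control (SD, n = 3), and the 3 groups did not overlap. The promoter match printed above lies in the promoters of both genes.

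**Figure D3:**
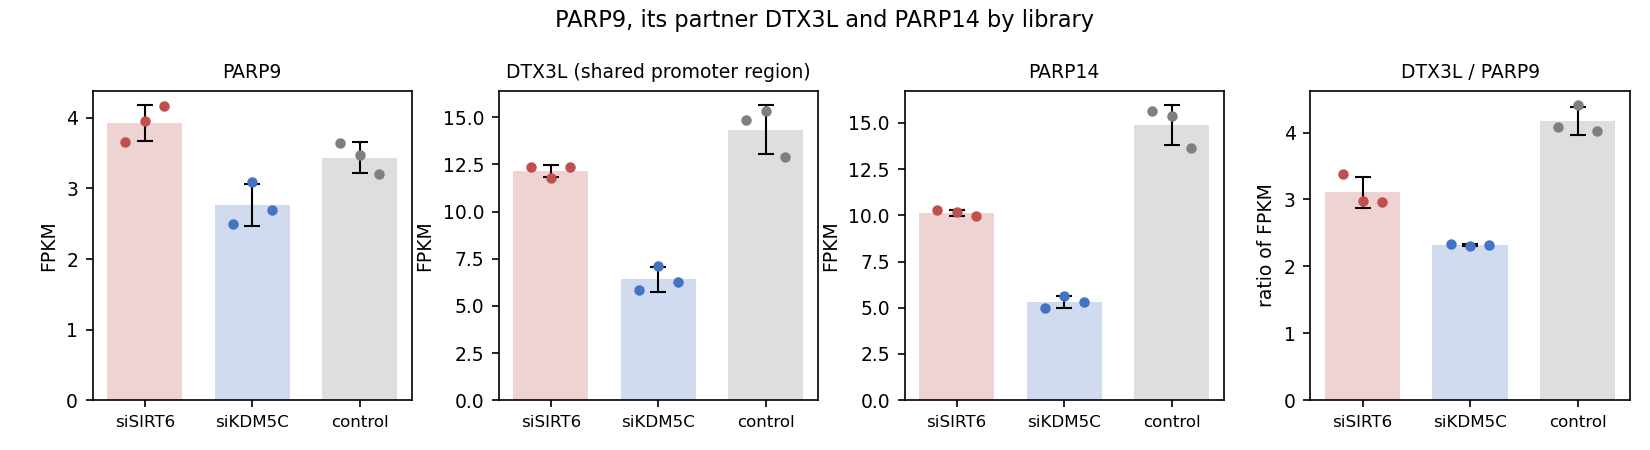
FPKM of PARP9, its partner DTX3L and PARP14 in each library, and the ratio of DTX3L to PARP9. Bars are group means, whiskers are SD and points are the 3 libraries of a group. DTX3L and PARP14 are lowest in siKDM5C, and the ratio is 3.11 in siSIRT6, 2.32 in siKDM5C and 4.17 in control.

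The interferon-linked genes thus fell in 2 of 4 cases after siSIRT6, with a median log2 fold change of -0.30, and in 4 of 4 cases after siKDM5C, with a median of -0.71, where 26.9% and 25.9% of all genes tested were called lower. The 4 after siKDM5C include PARP9, whose call was lost in 6 of the alternatives. All 4 were higher in siSIRT6 than in siKDM5C, by 0.34 to 0.82 log2 with a median of 0.38, against a median of -0.02 over all genes tested. The epithelial marker sum was also higher, and CD68 lower, in siSIRT6 than in siKDM5C. Of the 5 epithelial markers, limma called 3 higher and 1 lower. The lower one was EPCAM (log2 fold change -0.62, adjusted p = 0.00433), and KRT7 did not pass (adjusted p = 0.389). The part of these markers in the differences of the interferon-linked genes was not tested.

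PARP4 (ENSG00000102699, chromosome 13, 24420926 to 24512810, minus strand), a component of cytoplasmic vault particles, was the member with the highest FPKM. PARP4 was at 24.0, 24.2 and 24.2 FPKM in siSIRT6, at 20.9, 24.4 and 22.3 FPKM in siKDM5C, and at 23.4, 24.4 and 22.1 FPKM in control, and the groups overlapped. Its log2 differences from control were 0.05 after siSIRT6 (95% confidence interval -0.09 to 0.19) and -0.05 after siKDM5C (-0.19 to 0.10), neither past the test (adjusted p = 0.524 and 0.559).

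PARP6 (ENSG00000137817, chromosome 15, 72241181 to 72272999, minus strand) adds single ADP-ribose units and has been tied to dendrite growth in rat neurons. PARP6 was at 4.06, 4.54 and 4.15 FPKM in siSIRT6, at 4.63, 4.54 and 4.63 FPKM in siKDM5C, and at 6.23, 6.82 and 5.89 FPKM in control. Both knockdowns lay below every control and overlapped each other. PARP6 was 67.3% of control after siSIRT6 (log2 fold change -0.48, SE 0.06, adjusted p = 0.00032) and 72.8% after siKDM5C (log2 fold change -0.38, SE 0.06, adjusted p = 0.00105). The direct difference between the knockdowns was -0.09 (95% confidence interval -0.23 to 0.05, adjusted p = 0.261). PARP6 shares 356 exonic bases with AC009690.3 on the same strand, so its reads are uncertain there.

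PARP8 (ENSG00000151883, chromosome 5, 50665899 to 50846522, plus strand), one of the least studied members, had the lowest level. PARP8 was at 2.64, 2.48 and 2.46 FPKM in siSIRT6, at 2.67, 2.75 and 2.32 FPKM in siKDM5C, and at 2.62, 2.94 and 2.35 FPKM in control, and all groups overlapped. Its log2 differences from control were -0.04 after siSIRT6 (95% confidence interval -0.22 to 0.13) and -0.02 after siKDM5C (-0.20 to 0.15), with adjusted p of 0.677 and 0.844.

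**Figure D4:**
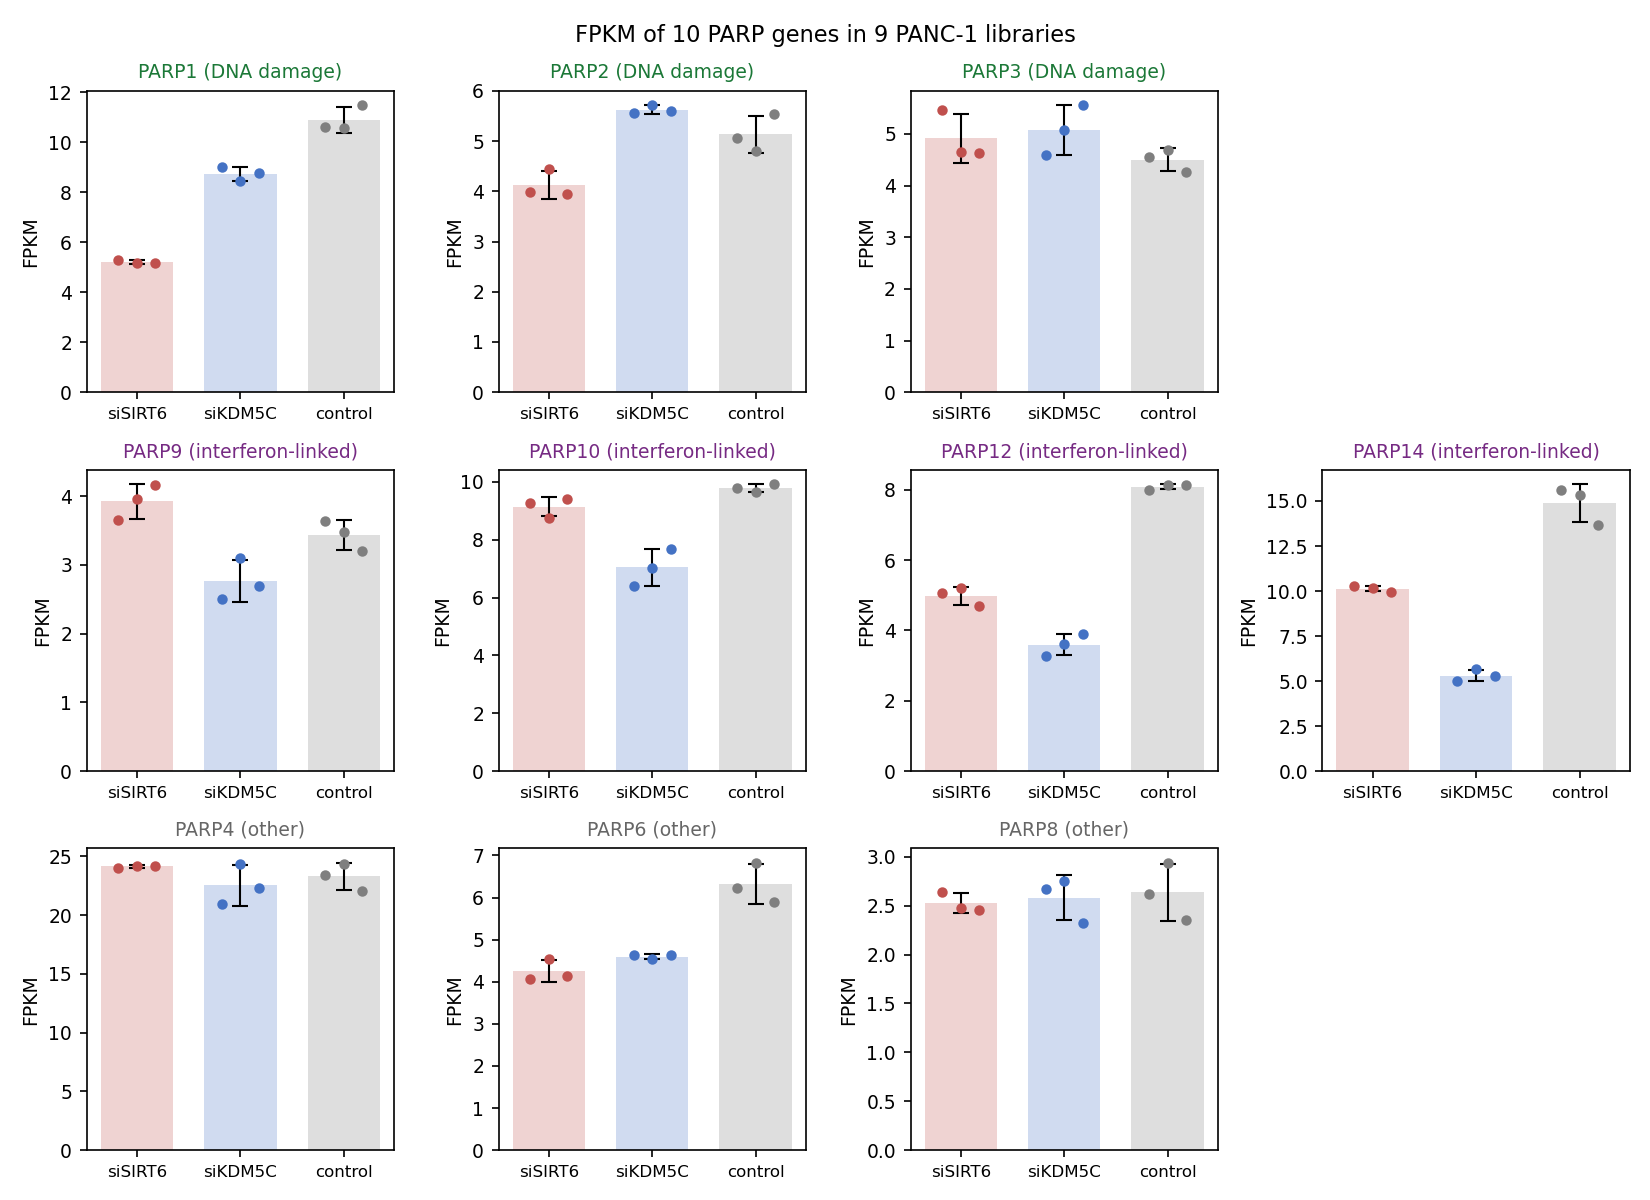
FPKM of each of the 10 PARP genes in the siSIRT6, siKDM5C and control libraries. Bars are group means, whiskers SD and points the 3 libraries. PARP1 is lowest in siSIRT6, and PARP9, PARP10, PARP12 and PARP14 are lowest in siKDM5C.

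Counted by overlap alone, after siSIRT6 1 member lay above all controls (PARP9) and 6 lay below (PARP1, PARP2, PARP6, PARP10, PARP12 and PARP14), where 30.3% of all genes lay above and 35.2% below, 65.5% in all. After siKDM5C 1 lay above (PARP2) and 6 below (PARP1, PARP6, PARP9, PARP10, PARP12 and PARP14), where 28% of all genes lay above and 27.7% below, 55.7% in all. In siSIRT6 against siKDM5C, 4 lay above and 2 below, where 23.9% of all genes lay above and 27.8% below, 51.7% in all. Over all 10 members the median log2 fold change was -0.17 after siSIRT6 and -0.26 after siKDM5C.

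The mix of PARP transcripts differed between the groups. DNA damage PARPs made up 19.4% ± 0.568 of the summed FPKM of the 10 genes in siSIRT6, 28.7% ± 1.17 in siKDM5C and 23.1% ± 1.33 in control (SD, n = 3). Interferon-linked PARPs made up 38.4% ± 0.314 in siSIRT6, 27.6% ± 0.947 in siKDM5C and 40.7% ± 0.589 in control. For both shares of the deposited FPKM the 3 groups did not overlap. The ratio of PARP1 to PARP14 was 0.515 ± 0.00458 in siSIRT6, 1.65 ± 0.155 in siKDM5C and 0.737 ± 0.0913 in control. The summed FPKM of the 10 genes was 73.4 ± 0.508 in siSIRT6, 67.9 ± 2.98 in siKDM5C and 89.0 ± 2.20 in control. These sums, shares and ratios rest on the gene lengths behind the FPKM, and that of PARP1 was 18399 bases, against 7169 bases of annotated exons in GENCODE release 29. Rescaled to annotated exon lengths, an alternative chosen after seeing the data, DNA damage PARPs made up 28.2% ± 0.608 in siSIRT6, 41.3% ± 1.69 in siKDM5C and 36.2% ± 1.87 in control, and the 3 groups again did not overlap. Interferon-linked PARPs then made up 33.8% ± 0.312 in siSIRT6, 22.3% ± 0.964 in siKDM5C and 33.2% ± 0.738 in control, so that siKDM5C lay below the other groups while siSIRT6 and control overlapped. The ratio of PARP1 to PARP14 became 1.35 ± 0.012 in siSIRT6, 4.33 ± 0.407 in siKDM5C and 1.93 ± 0.239 in control, with the groups in the same order. The sum became 81.0 ± 0.606 in siSIRT6, 81.3 ± 2.57 in siKDM5C and 104.9 ± 1.42 in control, with siSIRT6 and siKDM5C overlapping.

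Ranked by FPKM within siSIRT6, the order was PARP4, PARP14, PARP10, PARP1, PARP12, PARP3, PARP6, PARP2, PARP9 and PARP8, and the ranges of PARP1 and PARP12, PARP12 and PARP3, PARP6 and PARP2, and PARP2 and PARP9 overlapped. Within siKDM5C it was PARP4, PARP1, PARP10, PARP2, PARP14, PARP3, PARP6, PARP12, PARP9 and PARP8, and PARP2, PARP14, PARP3 and PARP6 each overlapped the next, as did PARP9 and PARP8. Within control it was PARP4, PARP14, PARP1, PARP10, PARP12, PARP6, PARP2, PARP3, PARP9 and PARP8, with no overlap between neighbours. PARP14 ranked 2 in siSIRT6, 5 in siKDM5C and 2 in control. The place of PARP1 depends on gene length as well. On the annotated length PARP1 was at 13.4 FPKM in siSIRT6, 22.4 FPKM in siKDM5C and 28.0 FPKM in control, and ranked first in control and second in siSIRT6. In siKDM5C PARP1 and PARP4 had ranges that overlapped on that length. The percentages of control given for a gene do not depend on this length, while differences of log2(FPKM + 1) do slightly, through the added 1. All 10 members were above 2.3 FPKM in every library, from 254 to 3950 implied reads, so counting error alone was at most 6.27% of a value.

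The rest of the family was read from a list of 7 more genes, 4 of which passed the expression filter. Of these, 0 rose and 2 fell in each knockdown against control, by limma, with 0 rises also at an unadjusted p below 0.05. Over all genes tested, 26.9% were called lower after siSIRT6 and 25.9% after siKDM5C. TNKS2, a tankyrase that marks AXIN and other proteins for destruction, was at 13.8 ± 0.593 FPKM in siSIRT6, 13.5 ± 1.55 FPKM in siKDM5C and 18.7 ± 1.45 FPKM in control. It fell after siSIRT6 (log2 fold change -0.41, adjusted p = 0.0044) and after siKDM5C (log2 fold change -0.45, adjusted p = 0.00269). TIPARP, a target of the aryl hydrocarbon receptor, was at 12.4 ± 0.0731 FPKM in siSIRT6, 20.7 ± 2.64 FPKM in siKDM5C and 21.3 ± 0.815 FPKM in control. It fell after siSIRT6 (log2 fold change -0.73, adjusted p = 0.000147) and was -0.05 from control after siKDM5C (adjusted p = 0.656), and the knockdowns differed by -0.68 (adjusted p = 0.000343). ZC3HAV1, the antiviral zinc finger protein that binds viral RNA, was at 12.1 ± 0.251 FPKM in siSIRT6, 8.61 ± 1.45 FPKM in siKDM5C and 15.1 ± 1.61 FPKM in control. It fell after siKDM5C (log2 fold change -0.75, adjusted p = 0.000671), was -0.29 from control after siSIRT6 (adjusted p = 0.0584, range over alternatives 0.0187 to 0.17), and differed between the knockdowns by 0.46 (adjusted p = 0.011). PARP16, an enzyme of the endoplasmic reticulum membrane, was -0.10 from control after siSIRT6 and -0.01 after siKDM5C (adjusted p = 0.261 and 0.954). TIPARP was lowest in siSIRT6, as PARP1 was, and ZC3HAV1 was lowest in siKDM5C, as the interferon-linked members were.

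HPF1 and CHD1L, which work with PARP1, fell in both knockdowns. HPF1, which directs PARP1 and PARP2 to serine residues, was at 10.7 ± 0.0772 FPKM in siSIRT6, 9.76 ± 1.5 FPKM in siKDM5C and 15.0 ± 0.275 FPKM in control. It fell after siSIRT6 (log2 fold change -0.45, adjusted p = 0.00294) and after siKDM5C (log2 fold change -0.59, adjusted p = 0.000737). CHD1L, a chromatin remodeller switched on by ADP-ribose chains, was at 13.8 ± 0.210 FPKM in siSIRT6, 15.7 ± 1.07 FPKM in siKDM5C and 18.3 ± 0.507 FPKM in control, and fell in both (log2 fold change -0.39, adjusted p = 0.000567 after siSIRT6, and -0.21, adjusted p = 0.0117 after siKDM5C). Of the enzymes that remove ADP-ribose, 5 of 6 listed were tested. Limma called 50.8% of all genes tested in siSIRT6 against control, 51.5% in siKDM5C against control and 39.9% between the knockdowns. Of the 5 enzymes, limma called 0 in any comparison. At an unadjusted p below 0.05 it called 1, PARG in siSIRT6 against siKDM5C. PARG, which cuts the chains, was at 9.14 ± 0.295 FPKM in siSIRT6, 8.17 ± 0.459 FPKM in siKDM5C and 8.25 ± 0.502 FPKM in control (adjusted p = 0.0946 for siSIRT6 and 0.868 for siKDM5C against control, and 0.0842 between the knockdowns). The PARG difference passed in siSIRT6 against control with median-of-ratios scaling (adjusted p = 0.032) and with GC content and length trends removed (adjusted p = 0.00601). MACROD1 in siSIRT6 against control passed at an adjusted p of 0.0158 when the 2 groups were fitted alone, and of 0.018 when siKDM5C replicate 3 was left out. The log2 differences of ADPRH, ADPRS, MACROD1 and OARD1 from control were -0.13, -0.21, 0.23 and -0.07 after siSIRT6, and -0.11, -0.10, 0.20 and 0.06 after siKDM5C.

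Base excision and single-strand break repair, the pathway in which PARP1 and PARP2 act, was read from 17 tested genes of 18 listed. After siSIRT6, 1 rose, 10 fell and 6 did not pass, with a median log2 fold change of -0.27, against -0.05 over all genes tested. Limma called 23.9% of all genes tested higher and 26.9% lower there. The flap endonuclease FEN1 was at 13.9 ± 0.429 FPKM in siSIRT6 and 25.2 ± 1.15 FPKM in control (log2 fold change -0.81, adjusted p = 1.62e-05). The uracil glycosylase UNG (-0.45, adjusted p = 0.000628), the ligase LIG3 (-0.44, adjusted p = 0.000639) and the glycosylase NTHL1 (-0.59, adjusted p = 0.000658) also fell. After siKDM5C, 3 rose, 7 fell and 7 did not pass, with a median of -0.08, against -0.02 over all genes tested. Limma called 25.6% of all genes tested higher and 25.9% lower in that comparison. UNG was at 11.7 ± 0.951 FPKM in siKDM5C and 8.11 ± 0.251 FPKM in control (log2 fold change 0.48, adjusted p = 0.000441), and FEN1 rose as well (0.40, adjusted p = 0.000879). The glycosylase MPG fell (-0.60, adjusted p = 0.000648). FEN1 and UNG thus moved in opposite directions in the knockdowns. PARP1 fell in both.

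Proliferation genes were lower beside PARP1 and PARP2 after siSIRT6. Of 15 listed and tested, 0 rose and 14 fell after siSIRT6, with a median log2 fold change of -0.67, and all 15 siSIRT6 ranges lay below the controls. Over all genes tested, 23.9% were called higher and 26.9% lower, the median was -0.05, and 35.2% lay wholly below the controls. The mitotic kinase PLK1 was at 8.30 ± 0.161 FPKM in siSIRT6 and 24.4 ± 1.43 FPKM in control (log2 fold change -1.45, adjusted p = 4.63e-07), and MKI67 (-1.16), CCNB1 (-0.95) and TOP2A (-1.15) fell with it. After siKDM5C, 3 rose, 3 fell and 9 did not pass, with a median of -0.02. There, 25.6% of all genes tested were called higher and 25.9% lower. Among the 15, RRM2 (0.69, adjusted p = 9.56e-05) and MCM4 (0.26, adjusted p = 0.00644) rose. PLK1 (-0.26, adjusted p = 0.00337) and CCNB1 (-0.23, adjusted p = 0.0188) were among those that fell. The CCNB1 call was lost with GC content and length trends removed (adjusted p = 0.076) and in a fit of the 2 groups alone (0.0583). Their part in the differences of PARP1 and PARP2 was not tested.

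Interferon-stimulated genes outside the PARP family were read from 22 tested genes of 36 listed. After siSIRT6, 1 rose, 11 fell and 10 did not pass, with a median log2 fold change of -0.35. After siKDM5C, 0 rose, 17 fell and 5 did not pass, with a median of -0.50, and limma called 0 higher at an unadjusted p below 0.05 as well. XAF1 and BST2 count among the falls in both knockdowns, but they passed the expression filter only through the controls, which favours a fall. XAF1 was at 0.443 FPKM in siSIRT6, 0.0833 FPKM in siKDM5C and 1.12 FPKM in control. BST2 was at 0.863 FPKM in siSIRT6, 0.336 FPKM in siKDM5C and 1.61 FPKM in control. In siSIRT6 minus siKDM5C, 12 were higher, 1 was lower and 9 did not pass, with a median of 0.25. Over all genes tested, 23.9% were called higher and 26.9% lower after siSIRT6, and 25.6% and 25.9% after siKDM5C. Between the knockdowns these shares were 18.6% higher and 21.3% lower. The medians over all genes tested were -0.05, -0.02 and -0.02 in the 3 comparisons. IFIT2, an RNA-binding antiviral protein gene, was at 9.55 ± 0.494 FPKM in siSIRT6, 6.40 ± 0.394 FPKM in siKDM5C and 21.9 ± 1.25 FPKM in control (log2 fold change -1.12, adjusted p = 3.99e-06 after siSIRT6, and -1.63, adjusted p = 6.35e-07 after siKDM5C). The related gene IFIT3 fell by 1.09 after siSIRT6 and by 1.73 after siKDM5C on the log2 scale. IFIT1, of the same family, was the 1 gene that rose after siSIRT6 (log2 fold change 0.22, adjusted p = 0.00721). It fell after siKDM5C (-0.54, adjusted p = 6.13e-05). ISG20 (-0.55) and PML (-0.44) fell after siSIRT6, and the RNA sensor IFIH1 (-1.57) and the oligoadenylate synthetase OAS3 (-0.75) after siKDM5C, all with an adjusted p of at most 0.000243. Of the 28 genes with a RefSeq promoter among all 36 listed, tested or not, 18 held the response element core, against 0 of 15 base excision repair genes. It was in 3.57% of all promoters, a share that counts promoters and not genes. The 28 genes have 41 promoters in the RefSeq table, and the 15 repair genes have 21. Of 13 interferon signalling genes, with 21 promoters, 1 held the core, and the levels of genes in that list follow.

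Interferon signalling was read from 14 tested genes of 15 listed. The list holds receptors and transducers of interferon, and also IRF1 and the feedback inhibitors SOCS1 and SOCS3. In each knockdown 0 rose, 9 fell and 5 did not pass, with a median log2 fold change of -0.32 after siSIRT6 and -0.40 after siKDM5C, and limma called 0 higher at an unadjusted p below 0.05. JAK2 counts among the falls in both, but it passed the expression filter only through the controls, which favours a fall. It was at 0.759 FPKM in siSIRT6, 0.682 FPKM in siKDM5C and 1.39 FPKM in control. Over all genes tested, 26.9% were called lower after siSIRT6 and 25.9% after siKDM5C, and the medians were -0.05 and -0.02. IRF1, a transcription factor of the interferon response, was at 4.61 ± 0.157 FPKM in siSIRT6, 2.57 ± 0.126 FPKM in siKDM5C and 11.2 ± 0.463 FPKM in control (log2 fold change -1.12, adjusted p = 1.49e-06 after siSIRT6, and -1.77, adjusted p = 1.63e-07 after siKDM5C). The feedback inhibitor SOCS1 was at 1.37 ± 0.143 FPKM in siSIRT6, 1.43 ± 0.220 FPKM in siKDM5C and 5.73 ± 0.385 FPKM in control (log2 fold change -1.50 after siSIRT6 and -1.47 after siKDM5C). IFNAR2, a subunit of the type I interferon receptor, fell by 0.58 after siSIRT6 and by 0.99 after siKDM5C. IL10RB, a receptor subunit shared with type III interferons, fell by 0.43 after siSIRT6.

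**Figure D5:**
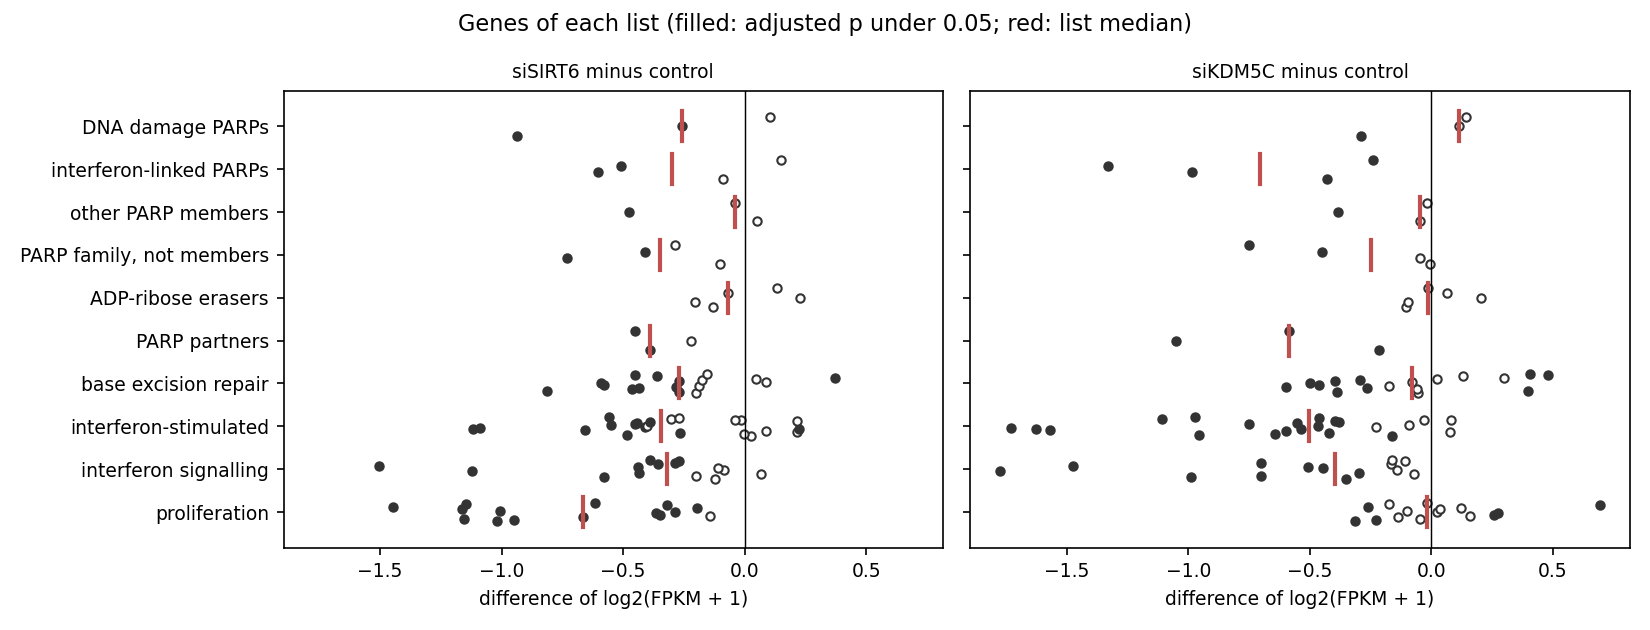
Differences of log2(FPKM + 1) (horizontal axis) in siSIRT6 minus control and siKDM5C minus control for each tested gene of the PARP sets and the related lists. Points are genes, filled where the adjusted p was below 0.05, and red bars are list medians. XAF1, BST2 and JAK2 are included and passed the expression filter only through the controls. Proliferation genes lie left of 0 after siSIRT6 (median -0.67) and around 0 after siKDM5C (median -0.02), and interferon-stimulated genes lie mostly left of 0 in both (medians -0.35 and -0.50).

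The genes whose levels ran most like those of PARP1, PARP9 and PARP14 were taken as the 3 protein-coding genes with a mean of at least 5 FPKM over the 9 libraries and the highest Pearson's r of log2(FPKM + 1) over the same libraries. The 9 libraries fall into 3 groups, so r mostly ranks genes by their order of group means and is given as a description. For PARP1 they were NCOA5 (r = 0.998), NXN (0.996) and TSPYL2 (0.995), and 162 of 6852 genes reached 0.95. For PARP14 they were NOTCH2 (0.999), IFIH1 (0.998) and HEG1 (0.998), and 182 of 6852 reached 0.95. For PARP9 they were PPP1R2 (0.972), JCAD (0.968) and ARL6IP5 (0.967), and 17 of 6853 reached 0.95. NOTCH2, for example, was at 13.4 ± 0.174 FPKM in siSIRT6, 8.08 ± 0.329 FPKM in siKDM5C and 18.2 ± 1.34 FPKM in control.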

How the data were processed

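Total RNA of 9 PANC-1 libraries was sequenced from a stranded mRNA kit, per the labels' protocols. The deposited files hold 1 FPKM value per gene and library, made by the authors with Trimmomatic, HISAT2, Cufflinks, HTSeq and the hg38 build, per the submitters' processing notes, which give no versions. The sources used here give neither the annotation nor the strand counted, and the unit was read from the values. The depth per library was taken from the most frequent FPKM step, using annotated exon lengths. With that depth and those lengths, 58.9% of genes gave whole reads (within 0.01) in all 9 libraries. Among the remaining genes, only those of the lists used here were searched for another whole length, at a wider tolerance. Counting intervals cover counting error only.

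A count test had been planned in case the files held raw counts; they hold FPKM, so the planned test for FPKM was used. Genes had to reach 1 FPKM in 3 or more libraries, which left 16135. Their log2(FPKM + 1) values entered limma 3.58.1 (R 4.3.3) in 1 fit of all 9 libraries (group terms, intensity trend, two-sided), with Benjamini-Hochberg adjustment over all genes tested. Fold changes on this scale understate the change of low genes. Symbols were matched for 36659 identifiers through the supplied gene name table, and coordinates were taken from GENCODE release 29. Promoters came from RefSeq (GRCh38.p14) and were found for 8 of the 10 members.

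The members and gene lists were chosen with earlier results of these data known. Named genes were SIRT6, KDM5C, the 10 members, the tested genes of the lists of other PARP genes, ADP-ribose erasers and partners, up to 4 genes with the smallest adjusted p per other list and knockdown, and 3 genes most like PARP1, PARP9 and PARP14. XAF1, BST2, JAK2, IFIT1 and SOCS3 are named besides, to show limits of the list counts. A few genes of these lists are counted but not reported here by name. Other filters, pseudocounts, scalings, models and left-out replicates were tried as alternatives. GC content was known for 98.7% of genes tested. Replicate numbers did not pair the libraries.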

Additional observations from a re-analysis of the deposited data

How the results depend on the processing

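For the 10 PARP genes, 547 of 564 values under the alternatives kept their direction and their side of the threshold, 6 lost the call (all PARP9 in siKDM5C minus control), 2 gained one and 9 changed sign. Of 1225 values of the other named genes, 1183 kept both, 12 lost a call, 22 gained one and 8 changed sign. None of the values that changed sign had been called. With a filter of 5 FPKM, which left 9446 genes to test, 5367 genes were called in siSIRT6 minus control and 5418 in siKDM5C minus control, against 8194 and 8308.

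PARP8 in siSIRT6 minus siKDM5C was 0.0065 log2 with median-of-ratios scaling, while correcting for GC content and length gave -0.18 and a call at an adjusted p of 0.0495. With the GC and length trend removed PARP8 in siKDM5C minus control was 0.17, PARP3 in siSIRT6 minus siKDM5C was 0.0249 and PARG in siKDM5C minus control was 0.0112. The cause was not tested. Leaving out each replicate in turn gave 6768 to 8787 genes called in siSIRT6 minus control, 6977 to 8401 in siKDM5C minus control and 4883 to 6945 in siSIRT6 minus siKDM5C, and 5, 5 to 6 and 6 members called. It moved PARP8 between -0.098 and 0.0174 in siSIRT6 minus control, between -0.0768 and 0.0387 in siKDM5C minus control and between -0.0747 and 0.0127 in siSIRT6 minus siKDM5C. PARP3 ran between -0.105 and 0.0191 in siSIRT6 minus siKDM5C. In siKDM5C minus control PARP4 ran between -0.10 and 0.0022, PARP16 between -0.0677 and 0.0499, TIPARP between -0.137 and 0.0392, PARG between -0.0531 and 0.0252 and OARD1 between -0.0133 and 0.107. At 18201413 to 26910441 reads per library, depth limited PARP3 and PARP2 most among the 10 members, with as few as 254 and 319 reads in a library.

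The replicate numbers only name the libraries: deviations of same-numbered libraries correlated at -0.229 to 0.252 in 9 pairs, where 0.1 in every pair was needed to treat them as paired. With the replicate block, 8130, 8245 and 6386 genes were called in siSIRT6 minus control, siKDM5C minus control and siSIRT6 minus siKDM5C, and 5, 6 and 6 of the 10 members.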

Other observations

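Among the PARP genes left out of the tests for low values, PARP11, known for ADP-ribosylation at the nuclear envelope, was at 0.50, 0.635 and 0.527 FPKM in siSIRT6, at 0.329, 0.262 and 0.243 FPKM in siKDM5C, and at 0.408, 0.431 and 0.363 FPKM in control. The 3 groups did not overlap, on 30 to 88 implied reads per library, and the difference was not tested. TNKS, the tankyrase gene beside TNKS2, was at 0.637 ± 0.140 FPKM in siSIRT6, 0.771 ± 0.0977 FPKM in siKDM5C and 0.750 ± 0.0621 FPKM in control (SD, n = 3), with overlapping groups. PARP15 was at most 0.0287 FPKM in any library.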
